A study of Homo sapiens with 20 samples.

Results

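Distal accessible regions confined to 1 lung cancer line were defined from Omni-ATAC-seq, an assay in which a transposase cuts open chromatin, in 4 human non-small cell lung cancer lines. The 591387 peaks of 8 libraries were pooled and overlapping peaks were merged into 208376 regions, of which 177088 lay over 3000 bp from the nearest annotated transcription start site (TSS). Members were chosen by their presence in the peak lists: they are the 17651 distal regions with a peak in both libraries of 1 line label and in none of the other 6. Of these, 9999 carried the label CL1-5, 4295 PC9, 2085 A549 and 1272 H1299.

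For each line, 1 ATAC library came from Mock cells given phosphate-buffered saline and 1 from cells given decitabine (DAC), a nucleoside that traps and depletes DNA methyltransferases, at 100 nM for 72 h and then kept 3 days without drug. mRNA-seq was done in the same way in A549, H1299, CL1-5, PC9, CL1-0 and H1792, with 1 library per line and treatment, 12 in all. All are established lung cancer lines, and CL1-5 is a more invasive subline selected from CL1-0. There were no replicate libraries, so tests run over the assignment of lines to labels and carry no within-line error.

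The lists of the labels CL1-5 and PC9 were in doubt. In the libraries labelled CL1-5 the peaks are named for PC9, and in those labelled PC9 they are named for CL1-5. Regions are therefore called by their label, and expression is given in both lines. Comparisons of regions with mRNA are given under both readings for these 2 labels.

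Distal accessible regions are mostly enhancers, insulators and other control elements that act on promoters over long distances. Most enhancers differ between cell types, because they open where a line's own transcription factors bind, often together with AP-1 (dimers of FOS and JUN proteins) and TEAD factors. The gene nearest to an enhancer is often, but not always, its target. Promoters, by contrast, tend to be open in many cell types.

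Sequences of the members on which the results turn are shown first, from GRCh37 on the plus strand. The following 6 are the central 300 bp of the strongest member listed for a gene that is described below. Capitals mark matches to the AP-1, GRHL and TEAD motifs whose letters are given with the motif counts.
ALDH1A1, label A549, intron, chr9:75612464-75612763: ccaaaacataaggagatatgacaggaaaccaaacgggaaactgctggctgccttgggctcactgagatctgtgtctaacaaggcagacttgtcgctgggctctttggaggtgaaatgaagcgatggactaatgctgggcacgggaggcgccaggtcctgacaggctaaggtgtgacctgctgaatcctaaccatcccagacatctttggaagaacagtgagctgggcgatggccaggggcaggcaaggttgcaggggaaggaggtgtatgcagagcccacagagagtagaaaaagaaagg
PDE4D, label A549, intron, chr5:58365250-58365549: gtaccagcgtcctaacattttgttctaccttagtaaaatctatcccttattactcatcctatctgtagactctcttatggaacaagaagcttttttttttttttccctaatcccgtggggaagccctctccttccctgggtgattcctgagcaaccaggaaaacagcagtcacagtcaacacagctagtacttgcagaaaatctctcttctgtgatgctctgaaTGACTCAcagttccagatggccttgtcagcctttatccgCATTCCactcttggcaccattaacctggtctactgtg
KIF21A, label H1299, intron, chr12:39773452-39773751: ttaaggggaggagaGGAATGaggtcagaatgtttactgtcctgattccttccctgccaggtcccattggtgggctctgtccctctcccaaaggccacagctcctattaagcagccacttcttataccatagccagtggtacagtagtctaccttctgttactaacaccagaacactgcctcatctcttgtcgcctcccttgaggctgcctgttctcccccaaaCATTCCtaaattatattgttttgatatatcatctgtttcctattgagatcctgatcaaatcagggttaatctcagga
EHF, label CL1-5, intergenic, chr11:34702680-34702979: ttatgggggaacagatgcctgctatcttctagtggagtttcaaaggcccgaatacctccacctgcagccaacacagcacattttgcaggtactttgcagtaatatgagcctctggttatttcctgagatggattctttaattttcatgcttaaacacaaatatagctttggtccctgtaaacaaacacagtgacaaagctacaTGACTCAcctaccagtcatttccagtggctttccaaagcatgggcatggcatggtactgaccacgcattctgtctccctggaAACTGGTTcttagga
CDH13, label PC9, intron, chr16:82667739-82668038: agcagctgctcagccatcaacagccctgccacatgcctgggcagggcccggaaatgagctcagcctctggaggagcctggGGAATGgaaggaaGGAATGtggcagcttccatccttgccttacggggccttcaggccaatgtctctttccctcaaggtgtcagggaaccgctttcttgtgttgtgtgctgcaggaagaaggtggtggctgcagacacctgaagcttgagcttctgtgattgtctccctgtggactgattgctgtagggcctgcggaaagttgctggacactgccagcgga
COL6A3, label PC9, intergenic, chr2:238173465-238173764: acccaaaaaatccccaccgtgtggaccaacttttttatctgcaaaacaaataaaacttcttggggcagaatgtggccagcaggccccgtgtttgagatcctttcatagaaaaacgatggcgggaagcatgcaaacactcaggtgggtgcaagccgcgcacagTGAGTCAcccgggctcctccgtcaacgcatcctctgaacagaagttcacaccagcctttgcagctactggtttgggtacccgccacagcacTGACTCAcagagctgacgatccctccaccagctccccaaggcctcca
The COL6A3 member held 2 AP-1 matches, the EHF and PDE4D members 1 each, and the KIF21A and CDH13 members 2 TEAD matches each and no AP-1 match. None of these motifs was found in the window of the ALDH1A1 member.

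The next 4 are strong members labelled CL1-5 with a GRHL match, which is in capitals with up to 20 bases on each side. Their Mock fold enrichment, the peak caller's ratio of signal over local background, was 10.8 to 12.5. They need not be the strongest of all such members.
PTPRD, intergenic, chr9:11065126-11065173: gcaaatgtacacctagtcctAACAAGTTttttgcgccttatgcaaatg
SLC39A12, intergenic, chr10:18212827-18212874: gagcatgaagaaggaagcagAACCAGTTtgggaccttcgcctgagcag
PARD3, intron, chr10:34594371-34594418: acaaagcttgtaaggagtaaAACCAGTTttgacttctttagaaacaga
STK26, intergenic, chrX:131135443-131135490: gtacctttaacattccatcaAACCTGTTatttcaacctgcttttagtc

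The labels differed widely in their number of members. Members made up 23.7% of the 42278 distal regions found in both libraries labelled CL1-5, 12.4% of 34726 for PC9, 7.71% of 27036 for A549 and 7.24% of 17560 for H1299. The order of the labels followed the number of peaks in the Mock lists, which held 85710 peaks for CL1-5, 71204 for PC9, 58734 for A549 and 45354 for H1299. The read depth of each ATAC library is unknown, and its part in these numbers was not tested. When all lists were cut to the same number of their best peaks, members numbered 5744 for CL1-5, 2508 for PC9, 2221 for H1299 and 1874 for A549.

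Members were weaker than other distal regions of the same line. Their median fold enrichment, the peak caller's ratio of signal over local background, was 3.84 in Mock A549 against 4.64 for the other distal regions found in both A549 libraries. The corresponding medians were 3.18 and 3.78 for H1299, 3.87 and 4.11 for CL1-5, and 3.45 and 4.16 for PC9. The weaker of the pair of peaks had a q-value over 0.01 in 79.0% of H1299 members, 56.0% of PC9, 40.7% of A549 and 33.9% of CL1-5 members. Most H1299 members thus include a marginal peak, and from lists cut at a q-value of 0.01 H1299 had 443 members in place of 1272. The median log2 ratio of DAC to Mock fold enrichment was -0.04 for A549, -0.10 for H1299, -0.05 for CL1-5 and -0.12 for PC9 members. In other distal regions it was -0.05, -0.14, -0.07 and -0.15.

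Members lay mostly in introns or between genes, and beyond the limit set by the rule their distances to the TSS varied widely. The median distance to the TSS was 34585 bp for A549, 36304 for PC9, 38990 for H1299 and 41560 for CL1-5, against 31734.5 for all distal regions and 20209 for the 7839 distal regions present in all 8 libraries. Between 38.3% (CL1-5) and 43.7% (A549) of members were in introns, against 41.4% of all distal regions, and between 47.5% (A549) and 53.95% (CL1-5) were intergenic. The median width was 492 to 609 bp, against 494 bp for all distal regions. At the distance limit, the nearest member labelled A549 was 3001 bp from the TSS of ERBB2, a receptor tyrosine kinase, while a region 2995 bp from ETV4 was left out. For CL1-5 the pair was SLC17A4 at 3003 bp and ABLIM1 at 2996 bp, for H1299 CDKN2B at 3033 bp and GMPPA at 2980 bp, and for PC9 B3GALT4 at 3015 bp and KCNAB2 at 2988 bp.

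Members were unevenly spread over chromosomes, and each label had its own pattern. Chromosome 15 held 7.25% of A549 members but 3.23% of all distal regions, a ratio of 2.25. H1299 members were most frequent relative to all distal regions on chromosomes 4, 6, 12 and 8, with ratios of 2.78, 2.71, 2.63 and 2.05, and least frequent on chromosomes 1 and 5, with ratios of 0.274 and 0.298. Members labelled CL1-5 were enriched on chromosomes 13, X and 4 (ratios 2.18, 1.89 and 1.71), and those labelled PC9 on chromosomes 22, 9 and 21 (ratios 1.84, 1.74 and 1.59).

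**Figure D1:**
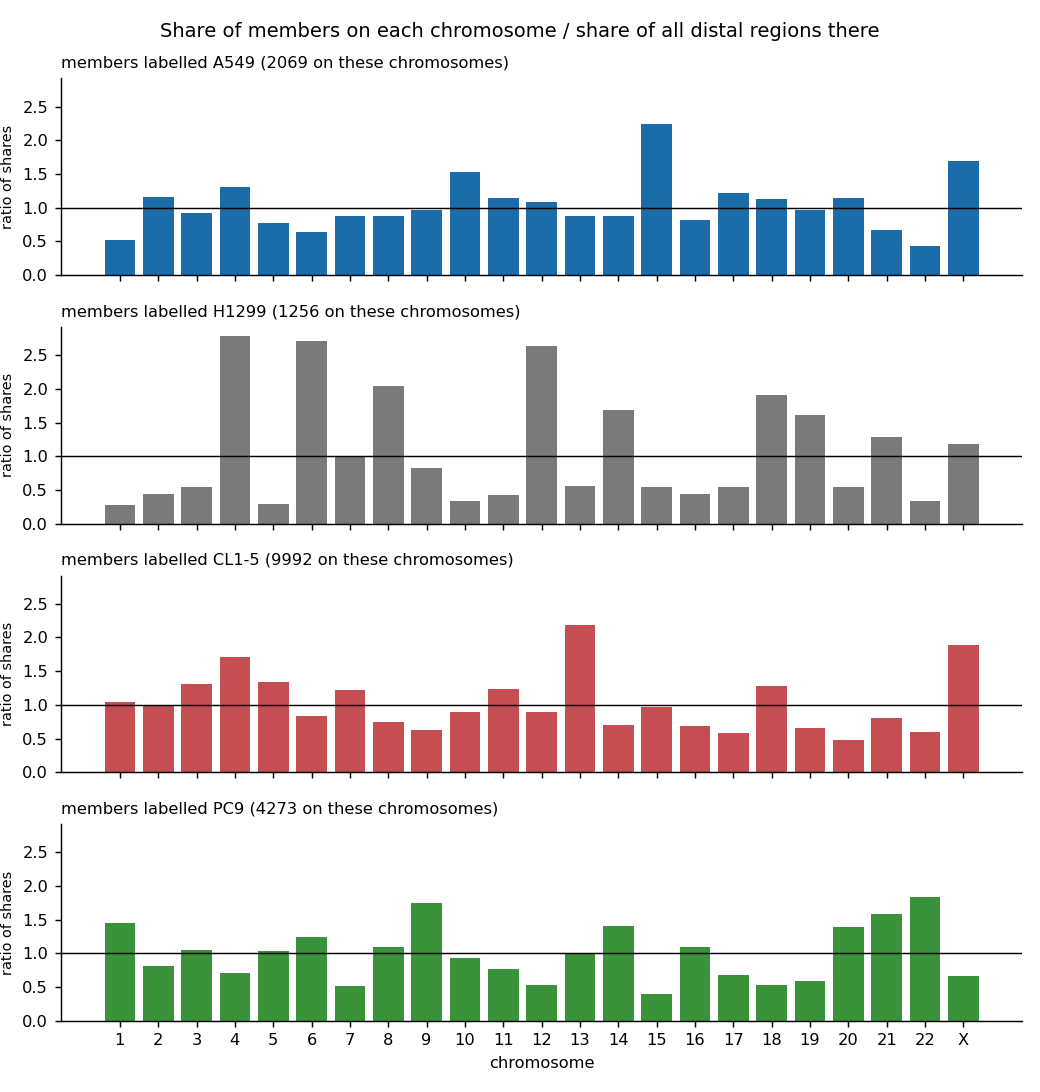
Share of the members on each chromosome divided by the share of all distal regions on it, for each label; the line at 1 marks equal shares. Chromosome 15 stands out for A549 (2.25), chromosomes 4, 6 and 12 for H1299 (2.78, 2.71 and 2.63), chromosome 13 for CL1-5 (2.18) and chromosome 22 for PC9 (1.84).

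In some wide stretches of chromosomes with many members, the genes as a whole were also higher in 1 line, by differing amounts. From position 1 to 20000000 of chromosome 5, 272 members carried the label CL1-5 and at most 43 any other label. The 94 genes tested there had a median log2 expression difference, a line's Mock level minus the mean of the other 3 lines, of 0.68 in PC9, 0.22 in CL1-5, -0.23 in A549 and -0.85 in H1299. The 55 of these genes with no member had a median of 0.53 in PC9. From 160000001 to 180000000 of chromosome 1, 123 members carried the label PC9, and the 161 genes tested had a median difference of 0.88 in CL1-5 and -0.22 in PC9. From 60000001 to 80000000 of chromosome 8, 66 members carried the label H1299, and the 76 genes had a median difference of 0.79 in H1299, and the 51 without a member 0.46. The H1299 window with the most members, from 40000001 to 60000000 of chromosome 12, had 83 members. Its 305 genes had a median difference of 0.22 in H1299 and 0.19 in A549, against -0.45 and 0.01 over all genes. Of the 305 genes, 86 were at least 2-fold higher in H1299, against 15.6% of all genes, and 73 in A549, against 20.3%. Over the whole of chromosomes 4, 6 and 12, where H1299 members were most enriched, the median difference in H1299 was -0.14, 0.15 and -0.18. Over chromosomes 18 and 19, also enriched, it was -0.15 and -0.02. These lie above the -0.45 of all genes. Over chromosomes 8 and 14, also enriched, it was -0.54 and -0.605, both below it. From 60000001 to 80000000 of chromosome 15, 50 members carried the label A549 and 102 the label CL1-5, and the 220 genes had a median difference of 0.74 in A549. Gene copy number was not measured, so its part in the number of members and in the expression was not tested.

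Some members formed dense groups around 1 gene. The densest 500-kb window of A549 (chr9:75500001-76000000) held 13 members around ALDH1A1 and ANXA1, and the adjoining windows from chr5:58000001-58500000 to chr5:58500001-59000000 held 11 and 10 members around PDE4D. In H1299 the densest windows were chr12:40000001-40500000 with 10 members around SLC2A13 and chr18:14000001-14500000 with 10 members next to ZNF519. In CL1-5 they were chr5:44500001-45000000 with 17 members between MRPS30 and FGF10, chr2:223000001-223500000 with 13 near SGPP2, and chr7:53500001-54000000 with 13 near LINC01446. In PC9 they were chr16:83000001-83500000 with 14 members in CDH13, chr10:4500001-5000000 with 11 near AKR1E2, and chr14:19500001-20000000 with 11 near POTEG, a member of a multigene family whose near-identical copies can share reads. Over all labels, 23.1% of CL1-5, 19.3% of PC9, 11.4% of A549 and 10.9% of H1299 members had another member of their label within 20000 bp. This is also the order of the labels by number of members, and the shares at equal numbers were not computed.

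The single strongest member of each label lay at a gene other than those with the most members. The highest Mock fold enrichments were 20.5 near ONECUT1 (label PC9), 17.3 in SCFD1 (A549), 15.6 in AKAP13 (CL1-5) and 14.1 near LOC441666 (H1299). In DAC the same regions had 19.2, 19.0, 9.64 and 12.7. Another strong H1299 member, chr7:55234971-55235405 in an EGFR intron, had a fold enrichment of 11.5 in Mock and 4.61 in DAC.

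The labels differed in the transcription factor motifs of their members. Matches were counted on both strands in the central 300 bp, with N for any base. The AP-1 motif (TGANTCA) was found in 28.2% of CL1-5, 23.4% of PC9, 16.0% of A549 and 7.22% of H1299 members, against 15.4% of all distal regions. The GRHL motif (AACNNGTT), bound by grainyhead-like factors that maintain epithelia, was found in 7.03% of CL1-5 members, against 2.22% to 3.51% in the other labels and 3.56% of all distal regions. FOXA (TGTTTAC) was found in 8.27% of A549, 6.61% of CL1-5, 5.24% of H1299 and 4.84% of PC9 members, and in 4.77% of all distal regions. HNF4 (CAAAGTCCA) was found in 0.770% of A549 members, 0.390% to 0.556% of the other labels and 0.446% of all distal regions. The TEAD motif (GGAATG) reached 25.3% in CL1-5 and 15.7% to 19.2% elsewhere. The E-box CACCTG, bound by the repressors ZEB1 and SNAI2, was found in 36.9% of CL1-5 and 31.4% of H1299 but 24.3% of PC9 and 23.9% of A549 members, against 32.1% of all distal regions.

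In 3 of the labels AP-1 matches rose with the strength of the members. When members were ranked by Mock fold enrichment and cut into 4 equal groups, the strongest group held the AP-1 motif in 41.3% of PC9, 39.6% of CL1-5, 20.8% of A549 and 9.21% of H1299 windows, and the weakest group in 13.1%, 15.5%, 13.1% and 7.94%. In H1299 the groups between had 4.76% and 6.98%, so there was no steady rise. Labels also differed within windows of like base composition. Among windows with 40 to 50% GC, AP-1 was found in 34.5% of CL1-5, 29.5% of PC9, 20.8% of A549 and 9.69% of H1299 members, against 21.05% of all distal regions, so that A549 did not exceed them. GRHL was found in 9.10% of CL1-5 members against 5.09%. The CTCF motif (AGGGGGC) of insulators was found in 4.17% of CL1-5 and 6.66% to 7.46% of other members at any GC. It was found in 7.38% of all distal regions and in 14.3% of those present in all 8 libraries. Among windows with 40 to 50% GC most of this contrast was gone. There it was found in 2.27% of CL1-5, 3.81% of PC9, 4.97% of H1299 and 5.19% of A549 members. All distal regions had 3.78%, and those present in all 8 libraries 5.325%.

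The mRNA of factors that bind these motifs followed the motif shares in some cases and not in others. Levels are in FPKM, read fragments scaled to gene length and library size, and bulk values cannot tell fewer expressing cells from less RNA per cell. HNF4A, a nuclear receptor of liver and gut, stood at 9.52 and 4.81 in A549 and at most at 0.0622 elsewhere. It had 0 members of any label. The forkhead factor FOXA2 stood at 17.3 in Mock A549 but also at 10.8 in Mock CL1-5, and FOXA1 was highest in Mock PC9 (9.315), with 7.61 in H1792 and 5.16 in A549, so that neither was limited to A549, the label with the most FOXA motifs.

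GRHL2 and the factors of the E-box split the labels CL1-5 and PC9. GRHL2, which maintains epithelial junctions, stood at 20.5 in Mock PC9 and 18.3 after DAC, was listed at 0 in Mock CL1-5, A549, CL1-0 and H1792, and stood at 0.0462 in Mock H1299. Its 5 members, like the most frequent GRHL motif, carried the label CL1-5. SNAI2, a repressor of epithelial genes, stood at 44.3 in Mock CL1-5 and 17.2 after DAC, at 4.68 and 4.07 in PC9, 1.56 and 1.86 in H1792, and at most at 0.173 in A549, H1299 and CL1-0. It had 4 members labelled PC9 and 1 labelled CL1-5. ZEB1 stood at 3.84 in Mock CL1-5 and 0.106 in Mock PC9.

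Each line expressed AP-1 subunits. FOSL1, the FRA1 subunit, was highest in Mock H1299 (189), the line with the fewest AP-1 motifs in its members, followed by H1792 (96.9), CL1-5 (94.5), PC9 (73.4), A549 (11.9) and CL1-0 (6.82). FOS stood at 121 in Mock A549, 36.8 in CL1-5, 18.75 in PC9 and 0.486 in H1299. Several other subunits were lowest in H1299 among the 4 Mock libraries. JUN stood at 72.6 in CL1-5, 46.9 in A549, 46.2 in PC9 and 12.8 in H1299. FOSB stood at 13.1, 12.8, 1.07 and 0.211 in the same order, and FOSL2 at 11.4, 17.85, 18.2 and 3.802. JUNB and JUND were lowest in CL1-5 (15.7 and 14.6).

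Whether the nearest genes of members were higher in the line of the regions was examined next, with mRNA as a readout that did not enter the choice of members. The gene listed for a region was matched to the mRNA table for 88.2% to 90.6% of members per label. A mean of at least 0.1 FPKM over the 8 libraries of the 4 lines left 1201 genes for A549 (281 fell below), 695 for H1299 (165 below), 4042 for CL1-5 (1041 below) and 1994 for PC9 (551 below). Differences are on the log2(FPKM + 0.1) scale, which understates changes of low genes.

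In A549 and H1299 the nearest genes were higher in their own line. Of the A549 genes, 420 (35.0%) were at least 2-fold above the mean of the other 3 lines in Mock A549, against 20.3% of all 22482 genes tested. Of the H1299 genes, 245 (35.3%) were at least 2-fold higher in Mock H1299, against 15.6% of all genes. The median differences were 0.51 and 0.55, against 0.01 and -0.45 over all genes. Among the 13485 tested genes listed for any distal region, the shares were 16.0% in A549 and 18.7% in H1299. Their medians were -0.04 and -0.08, so the gap in H1299 was narrower against these genes than against all genes. H1299 had lower values over much of the transcriptome, with 35.1% of all genes at least 2-fold lower than in the other lines.

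For the labels CL1-5 and PC9 the nearest genes were higher in the other line. Of the genes of regions labelled CL1-5, 1071 (26.5%) were at least 2-fold higher in PC9 mRNA, against 21.9% of all genes, and 521 (12.9%) in CL1-5 mRNA, against 22.0% of all genes. Of the genes of regions labelled PC9, 517 (25.9%) were at least 2-fold higher in CL1-5 mRNA, against 22.0%, and 360 (18.1%) in PC9 mRNA, against 21.9%. The median differences were 0.28 and 0.30 in the exchanged lines and -0.19 and -0.07 in the lines of the labels. Among the 13485 tested genes listed for any distal region, 17.6% were at least 2-fold higher in PC9 and 14.3% in CL1-5.

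**Figure D2:**
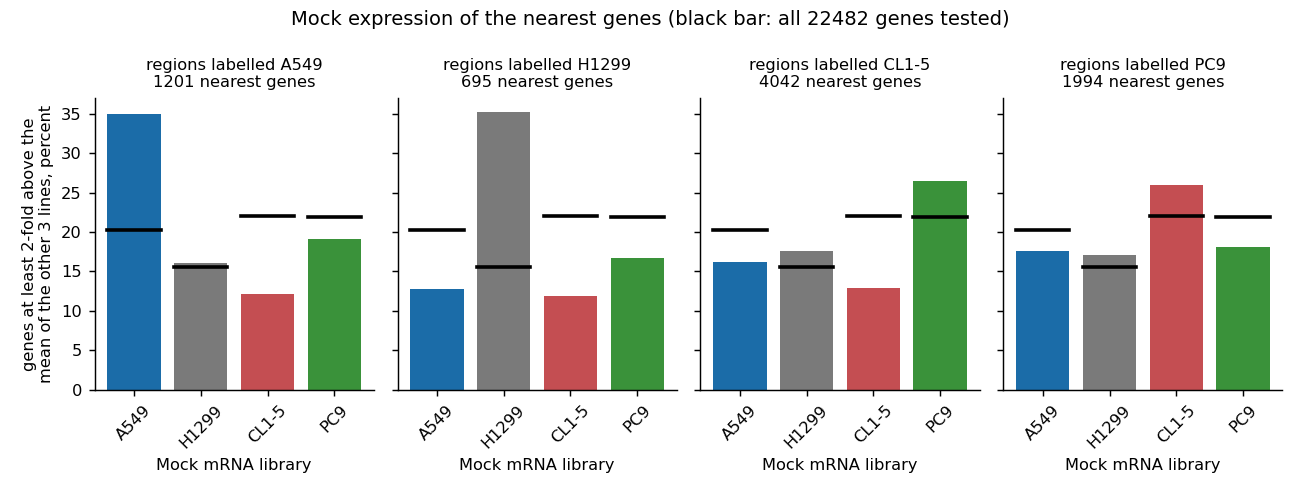
Percent of the nearest genes of each label (panels) that are at least 2-fold above the mean of the other 3 lines in each Mock mRNA library (bars), with the share among all 22482 genes tested as a black bar. The highest bar is A549 for the label A549 (35.0%), H1299 for H1299 (35.3%), PC9 for the label CL1-5 (26.5%) and CL1-5 for the label PC9 (25.9%).

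An exact one-sided permutation test compared each reading with all 24 assignments of the 4 mRNA lines to the 4 labels. With CL1-5 and PC9 exchanged, the mean of the 4 median differences was 0.41, the highest of the 24 (exact permutation p = 0.0417, the smallest the design allows, adjusted p = 0.104 over 5 tests). With the lines as labelled it was 0.20, the second highest (exact permutation p = 0.0833, adjusted p = 0.139), and the mean over the assignments was -0.03. Neither passed the threshold of 0.05 after adjustment, and 24 assignments are too few for a single test to pass it. Without the filter on low FPKM the means were 0.21 and 0.11.

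In A549, in H1299 and under the exchanged reading, the share of higher genes was larger with several members per gene than with 1. Over all genes it was 20.3% in A549, 15.6% in H1299, 21.9% in PC9 and 22.0% in CL1-5 mRNA. Genes with 1 member of the labels CL1-5 and PC9 did not exceed all genes in the exchanged lines. They did exceed the 17.6% and 14.3% of genes listed for any distal region. In A549 the share of higher genes was 30.3% of 992 genes with 1 member, 51.6% of 159 with 2, 74.4% of 43 with 3 or 4, and 71.4% of 7 with 5 or more. In H1299 it was 33.2%, 38.9%, 53.7% and 50% of 570, 72, 41 and 12 genes. For the label CL1-5 it was 21.5%, 29.8%, 39.9% and 49.5% in PC9 mRNA and 12.9%, 13.1%, 11.3% and 15.9% in CL1-5 mRNA. For the label PC9 it was 21.3%, 32.0%, 43.8% and 67.3% in CL1-5 mRNA and 18.1%, 18.5%, 17.4% and 16.4% in PC9 mRNA. These shares are descriptions, and genes that neighbour each other on a chromosome are not independent.

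**Figure D3:**
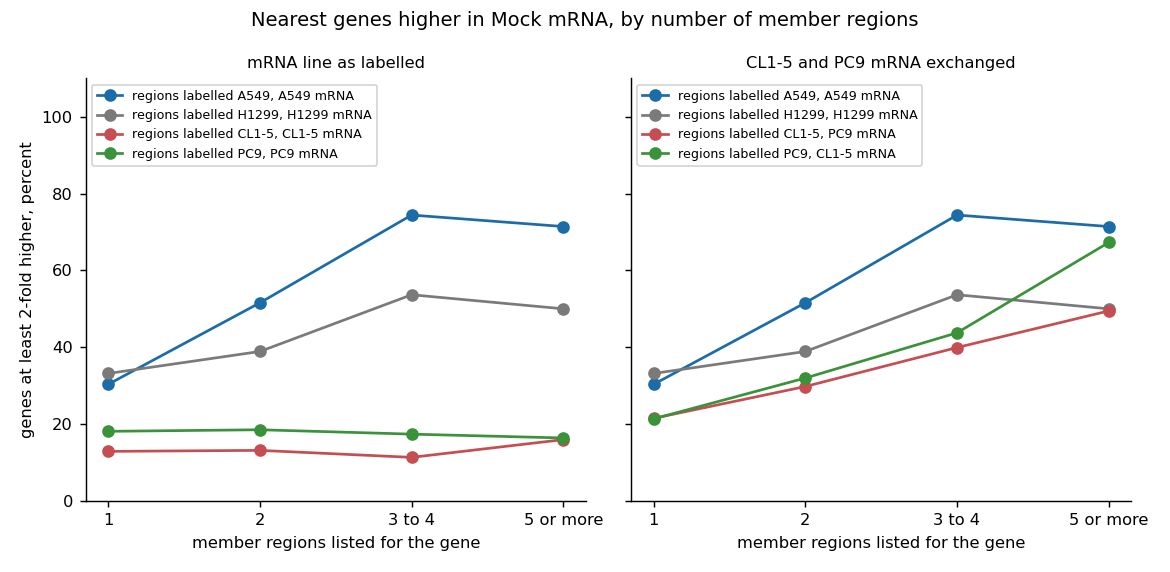
Percent of nearest genes at least 2-fold higher in Mock mRNA, by the number of member regions listed for the gene, with mRNA lines as labelled (left) and with CL1-5 and PC9 exchanged (right). The labels CL1-5 and PC9 stay between 11.3% and 18.5% on the left and rise to 49.5% and 67.3% on the right.

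The share of higher genes also varied with the distance of the member. For members 3000 to 10000 bp away, 37.7% of A549 genes were higher in A549, and for 50000 to 200000 bp 37.01%. For the label CL1-5 in PC9 mRNA the share fell from 31.3% to 23.5% between the same bins, and for the label PC9 in CL1-5 mRNA from 28.6% to 25.8%. Beyond 200000 bp it was 21.5%, 20.9% and 10.7% in the 3 cases. H1299 genes gave 35.0%, 34.2% and 42.6%, with 47 genes in the last bin. As labelled, CL1-5 genes gave 11.4%, 14.3% and 11.9% in CL1-5 mRNA, and PC9 genes 17.1%, 20.7% and 25.3% in PC9 mRNA, a rise with distance.

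In A549, in H1299 and under the exchanged reading, genes near members that held an AP-1 motif were more often higher than genes near members that held none. The shares were 47.0% of 215 against 32.3% of 984 in A549, 44.3% of 61 against 34.2% of 628 in H1299, 31.4% of 1602 against 23.3% of 2438 for the label CL1-5 in PC9 mRNA, and 30.1% of 564 against 24.3% of 1423 for the label PC9 in CL1-5 mRNA. For GRHL in the label CL1-5 and PC9 mRNA they were 31.7% of 496 against 25.8% of 3544. The rise was not particular to AP-1. For TEAD the shares were 42.4% against 32.8% in A549 and 38.1% against 34.4% in H1299. Under the exchanged reading TEAD gave 29.7% against 24.7% for the label CL1-5 and 33.05% against 23.8% for the label PC9. Shares for FOXA and the E-box were also higher with the motif for these 2 labels. In A549 they were not (FOXA 31.0% against 35.4%). As labelled, the shares for AP-1 were 11.05% against 14.1% for CL1-5 and 17.7% against 18.2% for PC9, and for GRHL in CL1-5 10.9% against 13.2%, so the order was the opposite. A gene with several members is more likely to have a motif near it, and this was not separated.

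CL1-0 and H1792 had mRNA but no ATAC libraries here. Over genes with 3 or more members, the median level relative to the mean of the 4 ATAC lines in CL1-0, the parent of CL1-5, was -0.46 for the 199 genes of the label PC9 and -0.58 for the 633 of the label CL1-5, against -0.01 over all genes. It was as low for the genes of A549 (-0.57) and H1299 (-0.50), so the low value was common to the 4 labels. In CL1-5 itself these values were 0.76 and -0.30, and in PC9 -0.27 and 0.56. H1792 gave 0.22 for the 50 genes of A549, 0.21 for CL1-5, 0.01 for PC9 and -0.30 for the 53 genes of H1299.

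Around ALDH1A1, A549 had 14 members and by far the highest mRNA. ALDH1A1 (ENSG00000165092, chr9:75515587-75695358), a retinaldehyde dehydrogenase, stood at 3351 FPKM in Mock A549 and 1285 after DAC. It stood at 200.5 and 182 in CL1-0, 6.95 and 5.66 in H1792, 4.17 and 2.52 in CL1-5, and 0.0338 and 0.470 in PC9, and was listed at 0 in Mock H1299. PDE4D, a phosphodiesterase that degrades cyclic AMP, had the most A549 members (22) and stood at 9.73 and 14.6 in A549, 4.81 and 3.31 in H1792, 3.24 and 3.89 in CL1-0, and at most at 1.203 in H1299, PC9 and CL1-5. PDLIM5, a scaffold protein of the cytoskeleton, had 5 members and stood at 28.6 in Mock A549 and 1.92 to 10.1 in Mock H1299, CL1-5 and PC9. PCDH9, a protocadherin, had 5 members and stood at 3.38 in Mock A549 and at most at 0.0902 in these 3, with 1.95 in Mock CL1-0. BICC1, an RNA-binding protein, had 3 members and stood at 27.6 in Mock A549, 2.52 in Mock H1792 and at most at 1.41 in the other Mock libraries. TCIM, a regulator of Wnt signaling, had 4 and stood at 34.0 and 55.1 in A549, at most at 2.85 in Mock H1299, CL1-5 and PC9, and at 4.35 in Mock H1792 and 56.6 after DAC.

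A549 also had genes with many members and little mRNA. RORA, a nuclear receptor, had 5 members and stood at 0.0630 in Mock A549 and at 0.3205 in Mock CL1-5. SPRY3, an inhibitor of receptor tyrosine kinase signaling, had 6 members and stood at 0.0880 in A549 and 0.588 in H1299. SPRY3 lies in a part of X that has a copy on Y, so its reads and peaks may be split. SLC24A4, an ion exchanger, had 3 members and stood at 0.0712 in A549 and 1.08 in H1299.

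In H1299, several genes with many members had their highest mRNA there, at modest levels. PKIA, an inhibitor of protein kinase A, had 8 members and stood at 11.0 in Mock H1299 and 10.2 after DAC, against 0.0775 in A549, 0.551 in CL1-5 and 2.26 in PC9 Mock. TDRD9, a helicase of the germline piRNA pathway, had 3 members and stood at 17.3 and 19.2 in H1299, while it was listed at 0 in Mock A549 and CL1-5 and stood at 0.246 in Mock PC9. NELL2, a secreted neural glycoprotein, had 5 members and stood at 3.92 and 3.57 in H1299, against at most 0.704 in the other 3 Mock libraries. SLC2A13, a proton myo-inositol cotransporter with 9 members, stood at 2.33 in Mock H1299, 0.850 in CL1-5, 0.707 in A549 and 0.331 in PC9. KIF21A, a kinesin with 7 members, stood at 4.60 in Mock H1299 and 4.85 in Mock A549, so that the lines overlap. TOX, RALYL and LINC00906, with 8, 8 and 6 members, had at most 0.263 FPKM in H1299 and fell below the filter. RPAP3, with 6 members, stood at 5.08 in Mock H1299 and at 10.9 to 13.1 in the other 3.

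Genes with members labelled CL1-5 included epithelial genes that PC9 mRNA held. MAL and ANO1, with GRHL2, were chosen for the highest PC9 differences among genes with at least 3 members, so their PC9 level is high by choice. MAL, an apical sorting protein of epithelia, had 3 members and stood at 138.7 in Mock PC9 and 108.7 after DAC, against at most 0.0760 in the other 3 Mock libraries. ANO1, a calcium-activated chloride channel, had 3 members and stood at 40.3 and 24.8 in PC9, 0.783 in Mock H1792 and at most at 0.110 in the other Mock libraries. EPHA4, an ephrin receptor, had 16 members and stood at 4.31 and 5.42 in PC9, 3.73 and 3.06 in H1792, and at most at 0.0830 in Mock A549, H1299 and CL1-5. GATA3, a zinc finger factor of luminal epithelia, had 9 members and stood at 12.2 and 16.9 in PC9 and 0.193 and 0.177 in CL1-5. EHF, an epithelial ETS factor, had 1 member and stood at 13.5 in Mock PC9 and 18.1 in Mock H1792, and was listed at 0 in Mock CL1-5 and H1299. EGFR, the receptor of epidermal growth factor, had 5 members and stood at 67.2 and 53.2 in PC9, against 12.4 in Mock CL1-5, 9.46 in A549 and 3.08 in H1299. IGFBP3, a binder of insulin-like growth factors, had 15 members and stood at 126 in Mock PC9 and 109 in Mock A549, and at 0.492 in CL1-5.

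**Figure D4:**
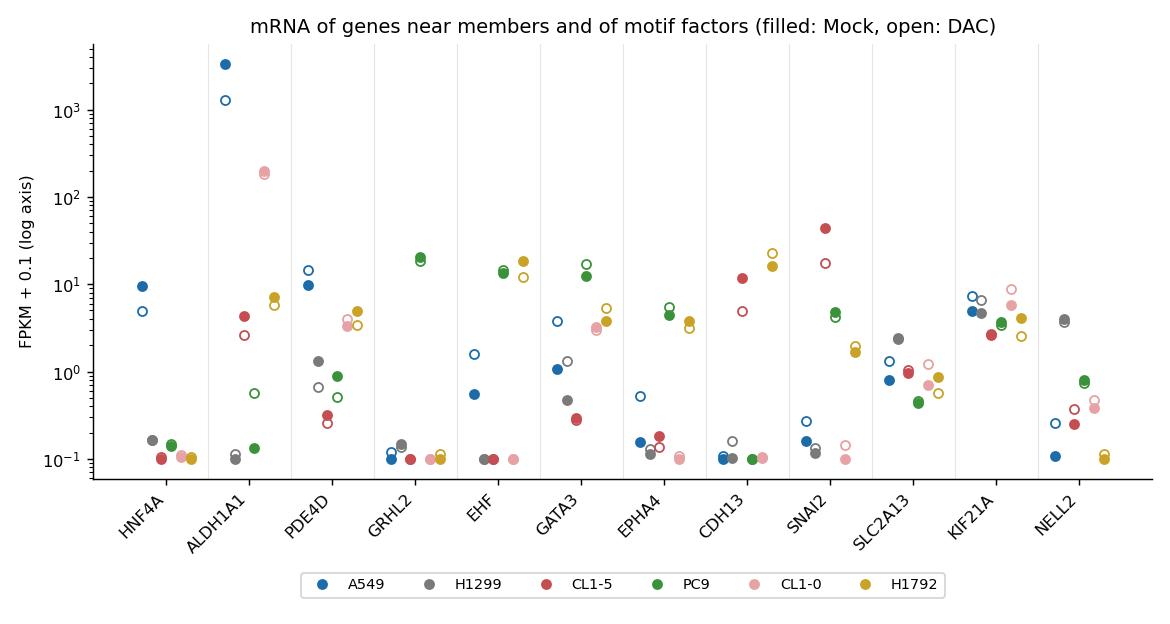
FPKM + 0.1 (log axis) of 12 genes near members or of motif factors in 6 lines, Mock filled and DAC open. HNF4A is high in A549 alone among these lines (9.52), GRHL2 in PC9 alone (20.5), SNAI2 highest in CL1-5 (44.3), and KIF21A overlaps between lines.

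Other genes with many members labelled CL1-5 had little mRNA in the 4 lines. CTNND2 and CDH6 on chromosome 5, with 24 and 16 members, had at most 0.171 and 0.251 FPKM in any of the 8 libraries of the 4 lines, and CDH18, with 23, stood at 0.00991 in Mock PC9, 0.0228 in Mock CL1-5 and 0.432 in Mock H1299. LSP1P3, a pseudogene with 28 members, was not matched to the mRNA table. MRPS30, a mitochondrial ribosomal protein with 16 members, stood at 18.2 in Mock PC9, 9.67 in CL1-5, 6.67 in A549 and 5.22 in H1299. VCX3A and SPATA31C2, from multigene families whose copies can share reads, had with TIMP3 the highest CL1-5 differences among genes with at least 3 of these members, at 391 and 2.52 FPKM in Mock CL1-5, and VCX3A stood at 226 in Mock PC9. COL4A2, a basement membrane collagen with 3 of these members, stood at 17.1 in Mock CL1-5, 22.8 in A549 and 0.0221 in Mock PC9.

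Genes with members labelled PC9 included genes of mesenchymal cells and matrix that CL1-5 mRNA held. CDH13, a GPI-anchored cadherin, had 13 members (with 11 more listed for MIR3182), stood at 11.6 in Mock CL1-5 and 4.88 after DAC, and was listed at 0 in Mock PC9 and A549. It stood at 16.2 and 22.8 in H1792 and at 0.00379 in Mock CL1-0. COL6A3, a chain of collagen VI, had 8 members and stood at 2.99 in Mock CL1-5 and 19.4 after DAC, against 0.0196 and 1.93 in PC9. NTM, a neural adhesion molecule, had 12 members and stood at 4.04 in Mock CL1-5 and 4.16 in Mock H1299, and was listed at 0 in PC9 and A549. CDH4, the retinal cadherin, with 12 members, stood at 1.95 in Mock CL1-5 and 2.095 in Mock A549, against 0.00655 in PC9. FOXP1, a forkhead factor with 9 members, stood at 2.33 in Mock CL1-5, 0.907 in A549, 0.6001 in PC9 and 0.331 in H1299. TIMP3, an inhibitor of metalloproteinases with 4 members of each of these 2 labels, stood at 82.2 in Mock PC9 and 51.9 in Mock CL1-5, against at most 0.0406 in A549 and H1299.

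Some genes of the label PC9 went with PC9 mRNA. SPOCK1, a matrix proteoglycan with 9 members, stood at 11.5 in Mock PC9, 11.7 in Mock H1792 and 0.0297 in Mock CL1-5. LRATD2, with 3 members, stood at 40.1 in Mock PC9 and 0.539 in CL1-5, and SAMD12, with 3, at 3.53 and 0.0480. On the other side, BASP1, RUNX3 and APBA2, with 3 members each, were listed at 0 in Mock PC9 and stood at 47.9, 9.72 and 3.69 in Mock CL1-5.

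Of the gene lists, the epithelial list had most members under the label CL1-5. The mesenchymal list had slightly more under PC9, although PC9 had fewer members in all. The list of 36 epithelial adhesion and identity genes had 24 members labelled CL1-5, 3 labelled PC9, 3 labelled A549 and 0 labelled H1299. In PC9 mRNA, 34 of the 36 genes were at least 2-fold above the other 3 lines (median difference 5.10), and in CL1-5 mRNA 2 were, against 21.9% and 22.0% of all genes. The list of 39 mesenchymal and matrix genes had 24 members labelled PC9, 21 labelled CL1-5, 6 labelled H1299 and 1 labelled A549. These lay at 12 genes for PC9, with 8 at COL6A3 and 4 at SNAI2, and at 14 genes for CL1-5. Of its 34 tested genes, 16 were at least 2-fold higher in CL1-5 mRNA, 15 in H1299, 9 in A549 and 4 in PC9 mRNA. The shares over all genes were 22.0%, 15.6%, 20.3% and 21.9%, so the list was raised in H1299 as well as in CL1-5. Over all genes there were 9999 members labelled CL1-5 and 4295 labelled PC9. Relative to these totals, between these 2 labels, the epithelial list leaned towards CL1-5 and the mesenchymal list towards PC9. The mesenchymal lean was not particular to PC9. H1299 had 6 mesenchymal list members of 1272 in all, also more than CL1-5 relative to its total.

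In A549, 22 members were listed for 9 of 28 NRF2 target genes, a list of genes of oxidative defence, 14 of them for ALDH1A1 alone. Of the 28 genes, 26 were at least 2-fold higher in A549 mRNA (median difference 2.64), against 20.3% of all genes, and 15 were also at least 2-fold higher in PC9 mRNA, against 21.9%. The antioxidant response element (TGANTCAGC), the NRF2 site, which contains an AP-1 motif, was found in 0 of the 22 windows and in 2.93% of all A549 members, against 2.72% of all distal regions. The list of 27 hepatocyte and gut genes had 7 members labelled A549, 5 CL1-5, 3 PC9 and 0 H1299, and 16 of its 20 tested genes were at least 2-fold higher in A549 mRNA, against the same 20.3% of all genes. The list of 39 receptor tyrosine kinases and ligands had 45 members labelled CL1-5, among them the 16 of EPHA4, 8 of ROR1 and 5 of EGFR, and 12, 10 and 4 labelled PC9, A549 and H1299. The list of 30 neural genes had 61, 16, 8 and 6 members labelled CL1-5, PC9, A549 and H1299. Of its genes, 5 to 10 reached 1 FPKM in a Mock library of the 4 lines, and the share of all genes that did was not counted. The 25 lung lineage and foregut factors had 31 members labelled CL1-5, 9 each of them for SOX9 and KLF5, and 3 to 8 of the other labels. The 27 AP-1, TEAD and hippo genes had 16, 6, 5 and 1 members labelled CL1-5, A549, PC9 and H1299. These counts stand beside totals over all genes of 9999 for CL1-5, 4295 for PC9, 2085 for A549 and 1272 for H1299. CL1-5 thus led over all genes as well, and no list was tested against the totals.

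Markers of other cells were low. Of 12 immune cell markers, 1 reached 1 FPKM in Mock A549 and 1 in Mock H1299, and none did in the other lines. Their summed level was 0.846 to 5.06 FPKM in the 6 lines, with 5.06 in A549 and 2.50 in H1299. PTPRC and CD3E, defining markers of leukocytes and T cells, were at most at 0.0230 FPKM in the 4 Mock libraries. None of the 7 lung epithelial markers reached 1 FPKM in any line. All 6 epithelial markers did in PC9, A549 and H1792, 3 in CL1-5, 2 in H1299 and 0 in CL1-0.

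The DAC response of the nearest genes was not larger in the line of the regions than under most other assignments. Their median log2 change from Mock to DAC was 0.15 in A549, against 0.07 over all genes, 0.02 in H1299, against 0.00, and for the label CL1-5 0.00 in CL1-5 and 0.07 in PC9, against 0.00 and 0.02. For the label PC9 it was 0.04 in PC9 and -0.01 in CL1-5. In A549 mRNA the genes of the labels H1299, CL1-5 and PC9 changed by 0.23, 0.17 and 0.19, more than the A549 genes. The mean over labels was 0.05 as labelled and 0.06 with the exchange, below the mean of 0.07 over the 24 assignments (exact two-sided permutation p = 0.208 and 0.375, adjusted p = 0.260 and 0.375). With 24 assignments a single test could not pass after adjustment, so these tests cannot show an absence. Members also had to be present in both Mock and DAC by the rule.

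Promoters of the nearest genes were somewhat more often open in the lists of the same label. A peak within 3000 bp of the TSS stood in the Mock list of the label for 73.7% of A549 genes, against 67.5% of all 21568 listed genes. It stood there for 70.0% of H1299 genes, against 62.8%, for 75.3% of CL1-5 genes, against 71.3%, and for 75% of PC9 genes, against 69.2%. The mean over labels was 73.5%, the highest of 24 assignments of the lists, whose mean was 70.55% (exact one-sided permutation p = 0.0417, adjusted p = 0.104). H1299 genes had a promoter peak more often in each of the other 3 Mock lists (70.6% to 71.4%) than in that of H1299. This comparison stays within the ATAC lists, so the exchange of line names does not enter it. The promoter peaks come from the same lists that defined the members, so they are not an independent readout.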

How the data were processed

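ATAC libraries were processed by the authors with CutAdapt, BWA 0.7.17-r1188, Picard 2.21.4 and SAMtools 1.9 on hg19. Broad peaks were called in each library separately with MACS2 2.2.5 and annotated with ChIPseeker 1.20.0. The deposited lists give each peak's fold enrichment over local background, its -log10 p-value and q-value, and a peak score, with no read depth. For mRNA-seq the authors deposited FPKM values made with DESeq2 1.24.0 on GRCh37 genes. The aligner is given as RSEM with bowtie2 in the methods and as TopHat2 2.1.1 in the submitters' processing notes. The mean normalized signal and the authors' own comparison (log2 fold change, test score and p-value), also deposited in that table, were not used. Of the columns that hold values of single samples, 0 lacked a sample.

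Peaks sharing 1 bp were merged, and the smallest absolute distance of a region's peaks to a TSS, with its gene, was kept. Groups follow the labels of the libraries. Expression was compared as log2(FPKM + 0.1) in genes with a mean of at least 0.1 FPKM over the 8 libraries of the 4 lines, each Mock line minus the mean of the other 3. The mean of the 4 labels' medians was compared with all 24 assignments of lines to labels, and p-values were adjusted by Benjamini-Hochberg over 5 tests. Bases came from the GRCh37 reference. Python 3.11.15, pandas 2.3.3, numpy 2.4.6, scipy 1.17.1 and matplotlib 3.10.9 were used, and the merging, motif and assignment steps were tested on simulated data.

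The rule for regions, the gene lists and the motifs were chosen with earlier results of these data known. The named genes of each label are the 6 with the most members, those of the 5 strongest members, the 3 highest and 3 lowest in expression difference among genes with 3 or more members, and list genes with 3 or more members or that encode a factor whose motif was counted. Of these only a selection is described, and genes of the Y chromosome were left out. Some items are not reported here. EHF, with 1 member, is a list gene chosen after its values were seen, as were the sequences printed. Alternatives covered peak thresholds, merging, distances, pseudocounts, filters, scaling, gene assignment and leaving out a line.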

Additional observations from a re-analysis of the deposited data

How the results depend on the processing

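With CL1-5 and PC9 exchanged, Mock expression of the nearest genes ranked first of 24 assignments in all 16 alternatives that kept the 4 lines (0.12 to 0.83), while the labels as given ranked between 2 and 4 (0.03 to 0.39). The 16 include the DAC libraries in place of Mock, chosen after seeing the data (0.39 and 0.17). Promoter peaks ranked first in all 9 (69.4% to 76.4%). None of these passed the threshold after adjustment (smallest adjusted p = 0.104 by exact permutation).

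The number of members depended on the lists. Only peaks with a q-value under 0.01 gave 443 for H1299. Equal peak numbers gave 2221 for H1299, 5744 for CL1-5 and 2508 for PC9. Mock lists alone gave 11676 for A549, 8647 for H1299, 31684 for CL1-5 and 19436 for PC9. Leaving out 1 line in turn gave 2538 to 4020 for A549 (4020 without CL1-5, 3652 without PC9), 1734 to 2004 for H1299 (1916 without CL1-5, 2004 without PC9), 11166 to 14132 for CL1-5 and 5371 to 7676 for PC9 (7676 without CL1-5), since regions of the line left out no longer remove members.

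Leaving out a line also gave Mock expression 0.04 to 0.29 as labelled and 0.29 to 0.35 exchanged, promoter peaks 72.15% to 74.85%, and the DAC response 0.02 to 0.08 as labelled. The exchanged DAC response ran from 0.0252 to 0.07056, and without H1299 (0.07056) it changed sides relative to the mean of the assignments; the cause was not tested. The exchange cannot be formed without CL1-5 or PC9, and with 6 assignments the smallest p is 0.167. No paired analysis was possible because the tests run over assignments of lines to labels, where replicate numbers pair nothing; the DAC response is itself a difference between the DAC and Mock libraries of a line. Unknown ATAC read depth limits every comparison of numbers of members.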
